A study of Mus musculus with 8 samples.

Results

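The T cell receptor complex and its main co-receptors were followed through 10 genes: Cd3d, Cd3e, Cd3g and Cd247 of the signalling complex, the co-receptor genes Cd4, Cd8a and Cd8b1, and Cd2, Cd5 and Cd28. The genes were chosen by name, with earlier results on these mice known. All 10 were found among the 19505 genes measured, each with 1 probe set. The mice had acute graft-versus-host disease, in which donor T cells attack tissues of the host. BALB/c recipients without a gene modification received lethal irradiation and then, on day 0, bone marrow and T cells of C57BL/6 donors. From day 0 to day 7 they were given PBS or hBD-2 by mouth, the latter at 1.2 mg/kg, and colon tissue, not sorted cells, was collected on day 7. The peptide, human beta-defensin 2, is an antimicrobial defensin of epithelial surfaces. There were 4 mice in each group and 1 Affymetrix array per mouse. No mouse without disease was among the 8, so every level below is one of diseased colon, and the arrays do not separate donor from host RNA.

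A T cell recognises its antigen through the T cell receptor, which has no signalling tail of its own. The signal passes through the CD3 gamma, delta and epsilon chains and the zeta chain, whose tails are phosphorylated by Src-family kinases. The co-receptors CD4, which binds MHC class II, and CD8, which binds MHC class I, bring such a kinase to the complex and mark helper and cytotoxic T cells. CD2 is an adhesion receptor, CD5 restrains receptor signalling, and CD28 gives the second signal that naive T cells need. In graft-versus-host disease of the gut, both CD4+ and CD8+ donor cells enter the mucosa and injure the epithelium.

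In whole colon, with all 8 mice, Cd4 showed the largest difference of the 10 genes. Without the 2 hBD-2 arrays that stood apart, Cd3g was at -0.82 and Cd4 at -0.72. With all mice Cd4 was 1.53-fold lower under hBD-2, with every hBD-2 mouse below every PBS mouse, but did not pass the adjusted test. Cd3d, Cd3e, Cd3g, Cd8b1, Cd28 and Cd2 lay lower by smaller amounts with overlapping groups, and Cd8a, Cd5 and Cd247 lay within 0.05 log2 units of the PBS mean. Of the 10 genes none passed an adjusted p of 0.05 in limma, where 0.0410% of all genes did, and 3 (Cd4, Cd28 and Cd3d) had an unadjusted p under 0.05. In that unadjusted count the share of all genes was 11.8%, and 5.98% lay on the lower side. The groups failed to overlap for 1 of the 10 genes, Cd4, against 6.41% of all genes and 3.60% on the lower side. The median difference was -0.22 log2 units (hBD-2 minus PBS), against 0.012 for all genes, and all 10 point estimates were below 0, as were 46.5% of those of all genes. These genes were picked with earlier results on these mice known, and they vary together, so the 10 are not separate pieces of evidence.

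The arrays had like overall distributions, with medians of 6.77 to 6.82 log2 units, and no pair was identical. A pair of hBD-2 arrays, numbers 1 and 3, lay at 25.2 and 25.4 on the first principal component, and the other 6 arrays between -14.9 and -2.5. Among these, PBS 1 and PBS 2 lay at -14.9 and -14.8, and PBS 3 and PBS 4 at -2.7 and -2.5. In hBD-2 1 and hBD-2 3 the summed level of 7 posterior colon genes, as a mean over genes relative to each gene's own mean, was 1.12 and 0.82 log2 units. It was -0.20 in hBD-2 2 and -0.22 in hBD-2 4, both above the PBS mice at -0.43 to -0.33. In that list Hoxd13 was at 0.83 and Hoxd12 at 0.36 (hBD-2 minus PBS) with all mice. Without this pair Hoxd13 was at -0.085, Scnn1g at -0.073, Scnn1b at -0.33 and Hoxb13 at -0.79. Hoxd12 was at 0.39, Hoxd11 at 0.89 and Hoxd10 at 1.20 there. Leaving out the pair thus did not remove every difference in this list. Values in the other 6 mice alone (4 PBS, 2 hBD-2), a setting chosen after seeing the data, therefore stand beside the results. The PBS mice differed among themselves too. Hoxd11 was at 6.6 and 6.2 in PBS 1 and PBS 2, and at 4.6 and 4.8 in PBS 3 and PBS 4. Hoxb13 was at 4.7 and 5.1, against 7.2 and 6.8. Cd3d, Cd3e, Cd3g, Cd247, Cd5 and Cd8b1 were lower in PBS 1 and PBS 2 than in PBS 3 and PBS 4. Cd2, Cd4, Cd8a and Cd28 did not split this way. Epithelial markers, which check that the tissue holds epithelium, were all measured, with mean levels of 9.69 to 12.4 log2 units. Their summed level lay at -0.026 to 0.050 in PBS and at -0.081 to 0.077 in hBD-2 mice. Among them Cdx2 was at 9.44 in hBD-2 1 and 9.48 in hBD-2 3, against 10.11 to 10.35 in the other 6 arrays. Krt18 was also lowest in these arrays, and Cdx1 was highest. In bulk tissue, fewer T cells and less RNA per T cell cannot be told apart. The sources used here do not say how the mice were housed or the arrays batched.

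**Figure D1:**
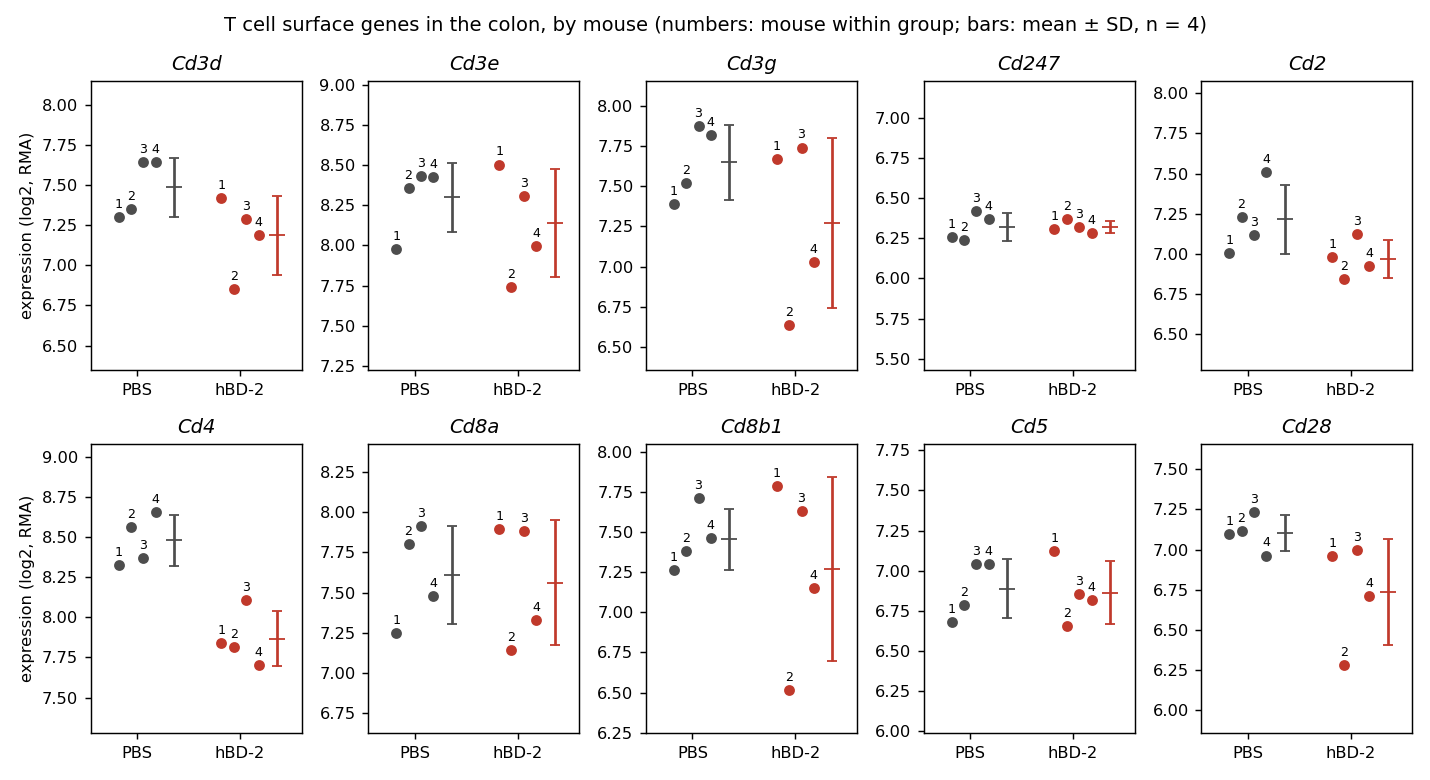
Expression (log2, RMA) of the 10 genes in each mouse, with PBS in grey and hBD-2 in red, the mouse number over each point and the mean ± SD beside each group (n = 4). Every panel spans the same log2 range, and Cd4 is the panel whose groups do not overlap.

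Of the CD3 chains, Cd3d encodes delta, Cd3e epsilon and Cd3g gamma, and epsilon pairs with each of the others. The 3 genes are neighbours on the chromosome in the RefSeq annotation of GRCm38.p6, with Cd3g and Cd3d side by side on opposite strands and Cd3e next to Cd3d. Stretches before the starts of these genes are shown, with that of Cd8a, chosen with the values across mice known. Whether they bear on the expression values was not tested. They are RefSeq sequences of build GRCm38.p6, written 5′ to 3′ and ending at the base before the outermost annotated start. Capitals mark matches to TGNGGT on either strand, where N is any base. This pattern is looser than the motif of Runx factors, which has T or C in that place. The match in Cd3d reads TGGGGT and that in Cd3g TGAGGT, so neither holds the stricter motif.
Cd3d, chr9:44981569-44981768, strand plus: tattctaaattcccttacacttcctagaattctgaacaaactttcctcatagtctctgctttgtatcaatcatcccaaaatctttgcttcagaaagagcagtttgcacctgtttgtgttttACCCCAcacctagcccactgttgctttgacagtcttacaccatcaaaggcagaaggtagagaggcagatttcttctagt
Cd3g, chr9:44980432-44980631, strand minus: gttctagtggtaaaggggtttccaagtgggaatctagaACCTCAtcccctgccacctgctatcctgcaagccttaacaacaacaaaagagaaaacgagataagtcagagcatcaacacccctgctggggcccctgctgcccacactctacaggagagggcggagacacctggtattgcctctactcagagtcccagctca
Cd3e, chr9:45009664-45009861, strand minus: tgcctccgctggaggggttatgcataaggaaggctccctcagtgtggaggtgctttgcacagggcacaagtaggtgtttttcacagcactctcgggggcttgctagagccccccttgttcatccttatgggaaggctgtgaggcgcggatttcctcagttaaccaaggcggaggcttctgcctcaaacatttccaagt
Cd8a, chr6:71373227-71373426, strand plus: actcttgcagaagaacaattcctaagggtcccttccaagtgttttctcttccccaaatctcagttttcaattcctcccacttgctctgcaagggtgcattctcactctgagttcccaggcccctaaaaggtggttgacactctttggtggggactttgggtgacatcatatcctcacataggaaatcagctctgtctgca

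Promoters were listed for 6 of the 10 genes. Cd2, Cd4, Cd8b1 and Cd28 were not listed. In the 250 bases before the listed start, TGNGGT was found in 5 of the 6 (Cd3d, Cd3e, Cd3g, Cd247 and Cd5; for Cd3e outside the stretch shown) and in 39.9% of 27025 promoters. The ETS-type motif GGAAGT was found in Cd3d, Cd3e, Cd247 and Cd5, against 5401 of the 27025. The E-box CAGNTG was found in Cd3d, Cd3g, Cd247 and Cd5, against 44.5% of all, and TATAAA in none of the 6, against 3504 of the 27025. A match by chance is common in windows of this length, and the motifs were picked with the sequences in view.

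Cd3d stood at 7.30, 7.35, 7.64 and 7.64 log2 units in PBS mice 1 to 4 and at 7.42, 6.85, 7.29 and 7.19 in hBD-2 mice 1 to 4. The groups overlapped, since hBD-2 1 lay above PBS 1 and PBS 2. The difference was -0.30 (SE 0.13, limma adjusted p = 0.413).

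Cd3e stood at 7.98, 8.36, 8.43 and 8.43 in the PBS mice and at 8.50, 7.74, 8.31 and 7.99 in the hBD-2 mice. The highest and the lowest of the 8 values were both hBD-2 mice, and PBS 1 lay well below the other PBS mice. The difference was -0.16 (95% interval -0.53 to 0.21, limma adjusted p = 0.736).

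Cd3g had a wider spread under hBD-2, with 7.39, 7.52, 7.87 and 7.82 in the PBS mice and 7.67, 6.64, 7.74 and 7.03 in the hBD-2 mice. Mice hBD-2 2 and hBD-2 4 lay below all PBS mice, while hBD-2 1 and hBD-2 3 lay among them. The difference was -0.38 with an SE of 0.23, and its interval ran from -0.89 to 0.13 (limma adjusted p = 0.546).

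In all 3 genes hBD-2 2 was the lowest of the hBD-2 mice and hBD-2 4 the next, and the pair that stood apart was the highest. In the other 6 mice the differences were -0.47 for Cd3d, -0.43 for Cd3e and -0.82 for Cd3g. Without hBD-2 2 they were -0.19, -0.030 and -0.17. The size of the difference in these chains thus rested on which hBD-2 mice entered it.

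Cd247, which encodes the zeta chain that carries most of the signalling motifs of the complex, had its values close together. Its PBS values of 6.26, 6.24, 6.42 and 6.37 and its hBD-2 values of 6.31, 6.37, 6.32 and 6.28 spanned the narrowest range of the 10 genes. The difference was -0.0013 (95% interval -0.16 to 0.16, limma adjusted p = 0.997). The zeta chain is also used by NK cells, whose 6 measured markers of 8 listed had none with an unadjusted p under 0.05. Among these, Ncr1, Klrb1c and Klre1 had low PBS means of 3.86 to 4.67 log2 units.

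Cd4 is the co-receptor of helper T cells, and regulatory T cells carry it too. It stood at 8.32, 8.56, 8.37 and 8.66 in the PBS mice and at 7.84, 7.82, 8.11 and 7.70 in the hBD-2 mice. No hBD-2 mouse reached the lowest PBS mouse. The means were 8.48 ± 0.16 and 7.87 ± 0.17 (SD, n = 4 each). The difference of -0.61 (SE 0.11, 95% interval -0.85 to -0.37) had an adjusted p of 0.0782 by limma and ranked as number 46 of all genes by p. It passed with an intensity trend and robust prior (adjusted p = 0.0160) and with the lowest 50% of genes left out (adjusted p = 0.0418), and it did not in the other alternatives (adjusted p 0.0602 to 0.286). Its size kept to between -0.72 and -0.55 in every setting run.

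In mice, CD4 is also found on some macrophages and dendritic cells. Of 13 measured macrophage and monocyte markers of 15 listed, 7 were lower and 1 higher at an unadjusted p under 0.05, and none passed the adjusted test. Their summed level was 0.074 to 0.28 in PBS mice and -0.25 to -0.11 in hBD-2 mice, without overlap. The lowest p among them belonged to the mannose receptor Mrc1, at -0.72, and the complement gene C1qa, at -0.66. The 10 dendritic cell markers had 2 lower, Itgax at -0.73 and Sirpa at -0.34, both shared with macrophages. The 1 higher was Flt3 at 0.40, and at 0.56 without hBD-2 1 and hBD-2 3, with low mean levels of 3.97 in PBS and 4.36 in hBD-2 mice. Of the 10 differences 6 were below 0, with a median of -0.014. Their summed level was -0.044 to 0.15 in PBS and -0.15 to 0.20 in hBD-2 mice. The part of these cells in the Cd4 difference was not tested.

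Cd8a and Cd8b1 encode the chains of the cytotoxic co-receptor and are chromosomal neighbours. Cd8a stood at 7.25, 7.80, 7.91 and 7.48 in PBS and at 7.90, 7.14, 7.88 and 7.33 in hBD-2 mice. The groups covered nearly the same range. The difference was -0.048 with a 95% interval of -0.49 to 0.39, so differences within that interval were not resolved (limma adjusted p = 0.943).

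Cd8b1 stood at 7.27, 7.38, 7.71 and 7.46 in PBS and at 7.78, 6.51, 7.63 and 7.15 in hBD-2 mice. Its hBD-2 values reached above and below the PBS range, and their SD was 0.57 against 0.19 in PBS. The difference was -0.19 (SE 0.24, limma adjusted p = 0.791). In the other 6 mice it was -0.62 for Cd8b1 and -0.38 for Cd8a, and without hBD-2 2 it was 0.065 and 0.093.

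**Figure D2:**
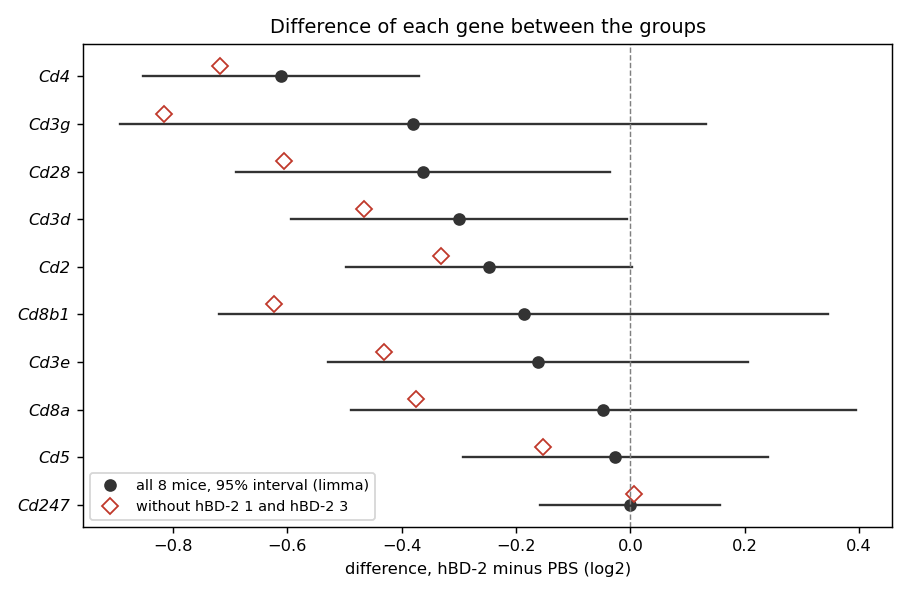
Difference between the groups (log2, hBD-2 minus PBS) for each gene, with circles and 95% intervals from limma for all 8 mice and open diamonds for the fit to the other 6 mice. Cd4 lies farthest from 0 with all mice at -0.61, and the diamonds of Cd3g and Cd8b1 lie much farther left than their circles.

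Cd28, the costimulatory receptor for CD80 and CD86, stood at 7.09, 7.11, 7.23 and 6.96 in PBS and at 6.96, 6.28, 7.00 and 6.71 in hBD-2 mice. Only hBD-2 3 lay inside the PBS range, with hBD-2 1 just under its lower end. The difference was -0.36 (SE 0.15, limma adjusted p = 0.371), and -0.21 without hBD-2 2 and -0.61 in the other 6 mice.

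Cd2, the adhesion receptor for CD48 in mice, stood at 7.00, 7.23, 7.12 and 7.51 in PBS and at 6.98, 6.84, 7.13 and 6.93 in hBD-2 mice. One hBD-2 mouse, hBD-2 3, lay above PBS 1 and PBS 3. The difference was -0.25 (SE 0.11, limma adjusted p = 0.427), -0.15 without PBS 4.

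Cd5 stood at 6.68, 6.79, 7.04 and 7.04 in PBS and at 7.13, 6.66, 6.85 and 6.82 in hBD-2 mice. The values of the groups were interleaved. The difference was -0.026 (95% interval -0.29 to 0.24, limma adjusted p = 0.948), and it was -0.15 in the other 6 mice and 0.043 without hBD-2 2.

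In the comparison of the other 6 mice, 7 of the 10 genes had an unadjusted p under 0.05 in limma, all lower, against 5.48% of all genes on that side. They were Cd3d, Cd3e, Cd3g, Cd2, Cd4, Cd8b1 and Cd28. None passed an adjusted p of 0.05, and the share of all genes that passed was 0.00%. The groups did not overlap for 6 genes, all lower, against 9.97% of all genes, and 9 of 10 differences were below 0, against 44.6%. The median difference was -0.45, against -0.22 with all mice. In every gene but Cd247, hBD-2 1 and hBD-2 3 had the highest values of the hBD-2 mice. Leaving them out therefore lowers those differences by construction, and these counts are not separate evidence. The count of 3 genes at an unadjusted p under 0.05 became 1, Cd4, when PBS 3 was left out, and also for hBD-2 2 and for hBD-2 4, and 5 without hBD-2 3. Shares of all genes in these settings are not given here. Cd4 alone kept an unadjusted p under 0.05 in every setting run.

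Whether Cd4 moved apart from the other lineage markers was tested within each mouse, as the log2 difference of a pair of genes. The arrays' overall scaling cancels in such a difference. The level of a single pair has no meaning across probe sets, and only its change between groups is read. Cd4 minus Cd8a was 1.08, 0.76, 0.46 and 1.17 in the PBS mice and -0.062, 0.68, 0.23 and 0.38 in the hBD-2 mice. The lowest PBS mouse, PBS 3, lay below the highest hBD-2 mouse, hBD-2 2. The change was -0.56 (SE 0.22), with a two-sided exact permutation p of 0.0571 and 0.0857 adjusted over the 3 pairs.

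Cd4 minus Cd3e was 0.34, 0.21, -0.061 and 0.23 in PBS and -0.67, 0.074, -0.20 and -0.29 in hBD-2 mice, a change of -0.45 (SE 0.18). Its exact permutation p was also 0.0571, and 0.0857 adjusted. Cd8a minus Cd3e differed by 0.11 (SE 0.11, exact permutation p = 0.400). The smallest p that 4 against 4 mice allow is 0.0286, and these pairs were chosen with the Cd4 result known. So a larger difference in Cd4 than in Cd8a or Cd3e was not established at this number of mice. In the other 6 mice the change was -0.34 for Cd4 minus Cd8a and -0.29 for Cd4 minus Cd3e, where the exact p was 0.200 and 0.267.

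**Figure D3:**
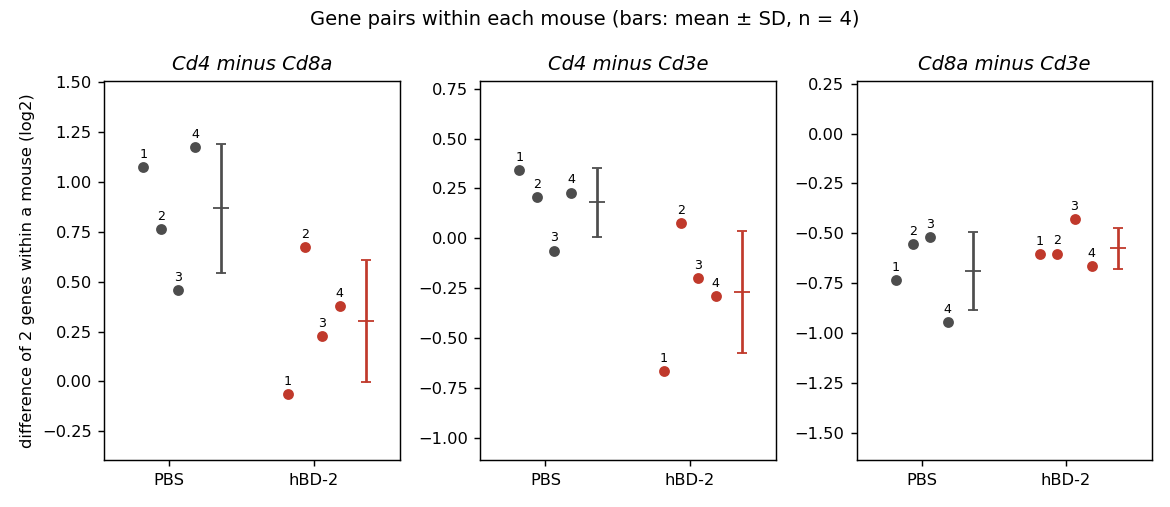
Difference of 2 genes within each mouse (log2) for the 3 pairs tested, with PBS in grey, hBD-2 in red, the mouse number over each point and the mean ± SD beside each group (n = 4). Cd4 minus Cd8a averages 0.87 in PBS and 0.30 in hBD-2 mice, and Cd8a minus Cd3e differs little between the groups.

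Across the 8 mice most of the genes varied together. Of 45 pairs, 44 had a Pearson r above 0, 14 had an exact permutation p of r under 0.05 after Benjamini-Hochberg adjustment over the pairs, and 5 had one of Spearman's rho. Cd3e and Cd3g had r = 0.92 (rho = 0.79, exact permutation adjusted p = 0.0183 and 0.0967), and r = 0.88 without the 2 mice farthest from the median of Cd3e. Cd8a and Cd8b1, whose products form 1 receptor, had r = 0.85 (rho = 0.93, exact permutation adjusted p = 0.0156 and 0.0411), and 0.85 without the 2 farthest mice.

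Cd3e and Cd8b1 had r = 0.92 (rho = 0.90, exact permutation adjusted p = 0.0156 and 0.0411), and 0.84 without the 2 farthest mice. Cd4 kept closer to Cd2, with r = 0.85 (rho = 0.90, exact permutation adjusted p = 0.0183 and 0.0411), and 0.83 without the 2 farthest mice. With Cd8a it had r = 0.25 (rho = 0.31, exact permutation adjusted p = 0.669 and 0.547). Taken as deviations from the group means, r was 0.92 for Cd3e and Cd3g, 0.86 for Cd8a and Cd8b1, 0.85 for Cd2 and Cd4 and 0.42 for Cd4 and Cd8a.

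Some relations rested on few mice. Cd3g and Cd28 had r = 0.88, but -0.016 without the 2 mice farthest from the median of Cd3g, and Cd3d and Cd8a went from 0.60 to 0.13. Cd247 had an r of -0.15 to 0.43 with the other 9 genes. All values of a mouse come from 1 array, so shared array effects enter every r.

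**Figure D4:**
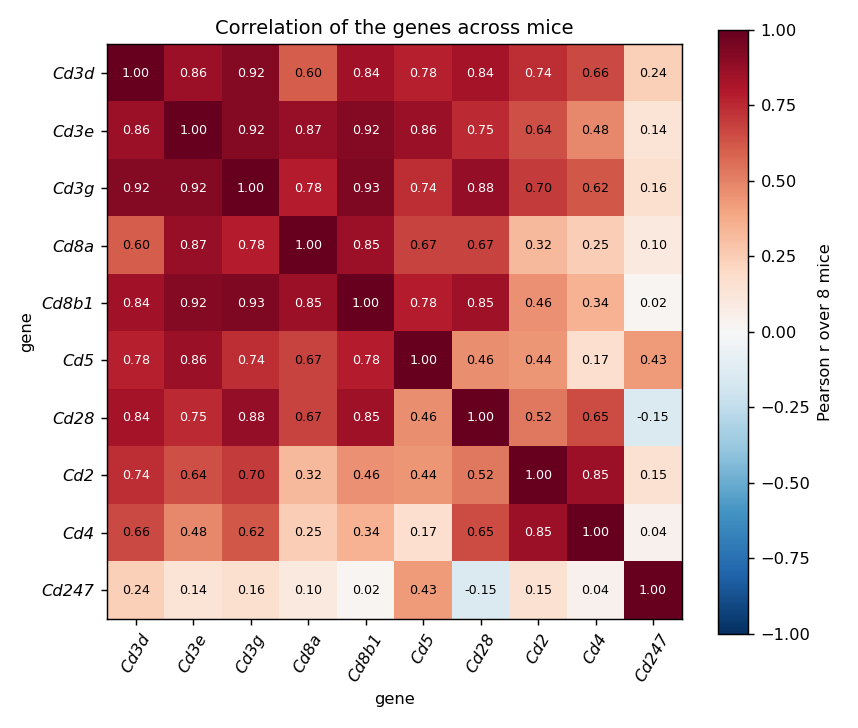
Pearson r between each pair of the 10 genes over the 8 mice, printed in each cell and coloured from -1 (blue) to 1 (red). The Cd3 chain genes, Cd8a and Cd8b1 form a block of values from 0.60 to 0.93, Cd4 is closest to Cd2 at 0.85, and Cd247 stays at or below 0.43.

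Among 18464 other genes with a proper symbol, the one most like Cd4 over the 8 arrays was Ms4a6b (r = 0.98), followed by Hnrnpu, Otud4, Eif2a and Nab2 (r = 0.95 to 0.97). Ms4a6b was at -0.63 (limma adjusted p = 0.0634). Nearest to Cd3e were Ccr2, Fbxw15, Myh8, Ccl4 and Sting1 (r = 0.93 to 0.94), and nearest to Cd8a were Plgrkt, Gtf2h4, Evi5l, Psme2 and Vamp4 (r = 0.94 to 0.95). With this many genes and 8 arrays, high values of r arise by chance, and they are given as a description. None of the 5 nearest to Cd4 was among the 5 nearest to Cd3e or Cd8a.

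The ligands of these receptors were all measured, and none of the 9 passed the adjusted test. Cd48, the ligand of CD2, was at -0.38 (SE 0.10), and its groups did not overlap. Cd80 and Cd86, the ligands of CD28, were at -0.43 (SE 0.16) and -0.39 (SE 0.19), and at -0.30 and -0.69 in the other 6 mice. Of the MHC class II genes bound by CD4, H2-Aa was at 0.14, H2-Ab1 at 0.012 and H2-Eb1 at 0.040. Of those of class I, H2-K1 was at 0.00037 and the light chain B2m at -0.028. H2-D1 was at 0.13 (SE 0.064), with every hBD-2 mouse above every PBS mouse. Limma's adjusted p-values ran from 0.212 for Cd48 to 0.999 for H2-K1. In the other 6 mice H2-Aa was at -0.075, H2-Ab1 at -0.25 and H2-Eb1 at -0.23.

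Downstream of the receptor, 27 of 30 listed genes of proximal signalling were measured. None passed the adjusted test, and 6 were lower and none higher at an unadjusted p under 0.05, with a median of -0.12. The other 6 mice had 12 lower and none higher, with a median of -0.24. The adaptor Lcp2 (SLP-76) was at -0.66 (SE 0.14), the exchange factor Rasgrp1 at -0.38 (SE 0.082), the phosphatase Ptpn6 at -0.29 (SE 0.075) and Themis, a T cell adaptor, at -0.47 (SE 0.16). Lcp2 and Ptpn6 are also made by myeloid cells, whose markers are given above, and their part here was not tested. Of the 7 constant genes of the receptor chains none was named on the array, and these are not analysed here.

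Of the helper T cell genes, 10 of 13 were measured and 4 were lower at an unadjusted p under 0.05, with none higher and none past the adjusted test. The survival cytokine receptor Il7r was at -0.63 (SE 0.089), the inhibitory receptor Ctla4 at -0.63 (SE 0.13), the costimulatory receptors Tnfrsf4 (OX40) at -0.48 (SE 0.14) and Icos at -0.35 (SE 0.14). Icos was at -0.54 in the other 6 mice. Zbtb7b (ThPOK), the factor that sets the CD4 fate, was at 0.014 with an interval of -0.17 to 0.20. Its mean was 9.50 log2 units in PBS mice, the highest in this list, and the part of cells other than T cells in it was not tested. Zbtb7b was chosen here after its value was seen.

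All 14 cytotoxic T cell genes were measured, with 5 lower and none higher at an unadjusted p under 0.05, none past the adjusted test and a median of -0.28. Gzma and Eomes of this list are also counted among the NK markers, and the part of NK cells was not tested. The transcription factor Tbx21 (T-bet) was at -0.26 (SE 0.075), the chemokine receptor Cxcr6 at -0.59 (SE 0.26), the granzyme Gzmc at -0.38 (SE 0.15) and the receptor Klrk1 (NKG2D) at -0.29 (SE 0.12). In the other 6 mice Cxcr6 was at -1.09 and Gzmc at -0.21, and 8 of the 14 were lower. There the median was -0.38 for this list and -0.37 for the helper list, which stood at -0.18 with all mice. A difference between the helper and the cytotoxic list was not tested.

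Other T cell surface genes had 12 of 14 measured, 4 of them lower and none higher at an unadjusted p under 0.05, none past the adjusted test, and a median of -0.19. The early activation antigen Cd69 was at -0.71 (SE 0.19), and the SLAM family receptors Slamf6, Ly9 and Slamf1 were at -0.55, -0.41 and -0.24. Cd69 was at -1.11 and Slamf1 at -0.15 in the other 6 mice. Itgae, the integrin chain that holds T cells within the epithelium, was at 0.25 (SE 0.13, limma adjusted p = 0.476). It was chosen here after its value was seen, and it was at 0.036 in the other 6 mice.

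Markers of other cells give the setting of these values. B cell markers had 1 of 7 higher (Cd79b at 0.22), with a median of 0.14, where Cd79b and Cr2, at -0.20, had the lowest p. Among the other 6 mice 4 B cell markers were higher and 1 lower at an unadjusted p under 0.05, with a median of 0.24. The mean levels of these markers were low, at 3.92 to 5.66 log2 units, against array medians of 6.77 to 6.82. NK markers had a median of -0.099, with Klrb1c at -0.17 and Itga2 at -0.43, the last at 0.025 in the other 6 mice. Itga2 stood at 9.5 in both hBD-2 1 and hBD-2 3, against 10.22 to 10.55 in the other 6 arrays. Its PBS mean was 10.4, while those of Ncr1, Klrb1c and Klre1 were low, at 3.86 to 4.67. The part of cells other than NK cells in Itga2 was not tested. Epithelial markers had a median of 0.012, with Cdx1 at 0.21 and Krt18 at -0.16. Of the stromal and muscle markers, 3 of 8 were lower at an unadjusted p under 0.05, with Vim at -0.54 and Col3a1 at -0.52, and their summed level was 0.019 to 0.22 in PBS and -0.45 to 0.038 in hBD-2 mice. Their median was -0.19, and -0.072 in the other 6 mice. The part of these cells in the T cell values was not tested.

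**Figure D5:**
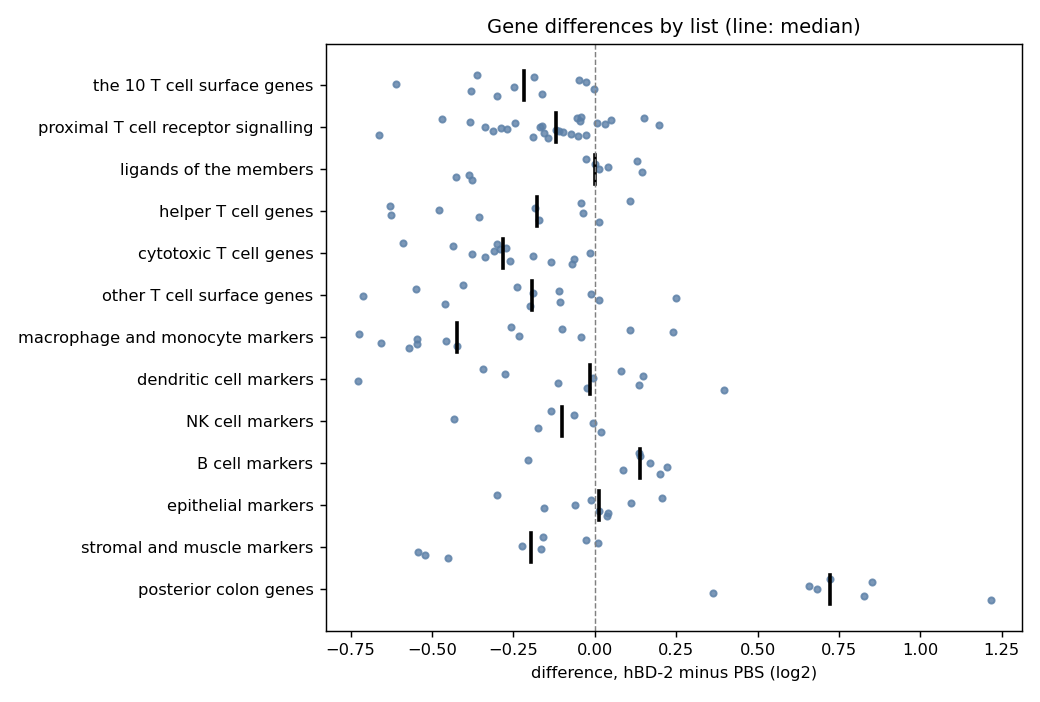
Difference of each measured gene (log2, hBD-2 minus PBS; points) and the median (line) for the 10 T cell surface genes and each list. The medians of the T cell lists lie between -0.28 and -0.12, those of the receptors' ligands and of epithelial markers near 0, and that of the macrophage and monocyte markers at -0.42.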

How the data were processed

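Whole colon RNA of 8 mice was measured on 1 Affymetrix array each, and groups and replicate numbers come from the titles. The deposited values are log2 expression of 22203 probe sets, made by the authors with RMA in the R package oligo per the submitters' processing notes, with no version. RMA makes the arrays' distributions alike, so an overall shift would not be seen. Of these, 19572 have 1 gene in the platform's annotation, and 2631 are unnamed here. For genes with several probe sets the one with the highest mean was kept, which left 19505 genes. The sources used here give no genome build for the array.

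Differences were tested with limma 3.58.1 (lmFit, then eBayes; R 4.3.3) over all 19505 genes, two-sided, with Benjamini-Hochberg adjustment and a threshold of 0.05. The code was tested on simulated arrays. Pair differences used exact permutation over mice. The members and lists were chosen with earlier results of these data known. Named genes are the 10 members, all ligands, the 4 genes of lowest p in each T cell list, the 2 in each marker list, and the 5 most correlated with Cd3e, Cd4 and Cd8a. The other posterior colon genes, Flt3 and Cdx2 were named in addition, after their values were seen. Alternatives covered the variance prior, low genes, scaling, probe sets, array weights, the replicate block and left-out arrays. The main tests did not pair mice by replicate number. Deviations of same-numbered arrays from their group means correlated at -0.152, 0.139, 0.244 and 0.045. These values cannot tell whether mice were matched by number.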

Additional observations from a re-analysis of the deposited data

Results flagged for a closer look

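Cd3e in PBS 1 lay apart from the other PBS mice, at 7.98 log2 units against 8.36 in the nearest of them. The gap was 0.832 of the group's range, just above Dixon's 95% limit for 4 samples. In all 26 groups of 4 values were looked at (10 genes and 3 gene pairs in each group of mice), and chance flags about 1 in 20. Without PBS 1 the Cd3e difference was -0.27, against -0.16 with all mice.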

How the results depend on the processing

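The number of genes past an adjusted p of 0.05 in limma was 8, but 91 with an intensity trend and robust prior, 68 with array weights, 16 and 47 with the lowest 25% and 50% of genes left out, 4 with quantile normalization repeated, 0 without the pair hBD-2 1 and hBD-2 3, and 0 to 11 with single arrays left out. Of the 10 T cell genes 1, Cd4, passed with the trend and with the lowest 50% left out, where 7 of the 10 were still tested. The replicate number as a block passed 0 genes and changed no call of the 10 genes (Cd4 adjusted p = 0.142). In that paired setting the pair changes had exact p of 0.125, 0.125 and 0.250, where 0.125 is the smallest that 4 pairs give. The count at an unadjusted p under 0.05 was 3, with 1 after repeated quantile normalization, 7 without that pair, and 1 to 5 with single arrays left out. The genes without overlap were 1, against 6 without that pair and 1 to 3 with single arrays left out. On the lower side 5.98% of all genes had an unadjusted p under 0.05 with all mice, and 5.48% without that pair. For lack of overlap on that side the shares were 3.60% and 9.97%. Fewer arrays make a lack of overlap more common. That pair also had the highest hBD-2 values in every one of the 10 genes but Cd247, so leaving it out lowers those differences by construction. Shares of all genes with single arrays left out are not given here. The median of -0.22 became -0.45 without the pair and -0.32 to -0.10 with single arrays left out. Cd4 minus Cd3e ranged from -0.57 to -0.32 with single arrays left out. Its exact permutation p there, not adjusted over the 3 pairs, ran from 0.0286 to 0.114. The lowest, without hBD-2 2, is the smallest that 35 splits allow. Signs turned in Cd247, Cd5, Cd8a and Cd8b1. Cd247 was at 0.018 with arrays centred on their medians, 0.0085 with array weights and 0.0059 without the pair. With array weights Cd5 was at 0.044 and Cd8a at 0.043. With single arrays left out Cd247 ran from -0.028 to 0.031, Cd5 from -0.11 to 0.043, Cd8a from -0.17 to 0.093 and Cd8b1 from -0.36 to 0.065. The cause of these changes was not tested. The deposited values do not show signal over background, and 4 mice a group limit the precision.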

Other observations

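Several of the genes have an immune receptor gene as chromosomal neighbour in the RefSeq annotation, and the values of neighbours are set side by side here, chosen after the data were seen. Ctla4, next to Cd28 and a rival for the same ligands, was at -0.63, with Cd28 at -0.36. Lag3, next to Cd4 and a receptor for MHC class II like CD4, was at 0.087 (95% interval -0.18 to 0.36), with Cd4 at -0.61. Cd6, next to Cd5 and closely related to it, was at 0.15 (95% interval -0.25 to 0.55), with Cd5 at -0.026. None of these genes passed the adjusted test in limma, and differences between neighbours were not tested.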
